A study of Mus musculus with 33 samples.

Results

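The phosphodiesterases and adenylyl cyclases are the enzymes that break down and make cyclic nucleotides. Adenylyl cyclases turn ATP into cyclic AMP when G protein coupled receptors or calcium act on them, and phosphodiesterases hydrolyse cyclic AMP, cyclic GMP or both, so the enzymes present in a neuron set how large and how long a second messenger signal is. Cyclic AMP acts on protein kinase A and the Epac exchange factors, and through CREB on transcription, and the pathway is well known for its part in synaptic plasticity and memory. Members were every gene of the expression table whose symbol is Pde or Adcy followed by a family number (and, for Pde, a subtype letter). There were 34 of 21565 genes, 24 phosphodiesterases and 10 adenylyl cyclases, and 30 had a mean of at least 1 CPM, the read count of a gene scaled to the size of its library.

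RNA-seq was done on frontal cortex of adult male mice on a C57BL/6J background in 33 libraries. Wild type (WT) mice slept ad libitum (control sleep, CS, 6 libraries), were kept awake for 6 hr (sleep deprivation, SD, 7 libraries) or had 2 hr of recovery sleep after 4 hr of deprivation (RS, 7 libraries). RS and SD therefore also differ in the length of deprivation. Mice with loxP sites around an exon of Mef2c and no Cre (Mef2c f/f; CS n = 4, SD n = 3) and Mef2c-cKO mice, which also carry Camk2a-Cre (CS n = 3, SD n = 3), were compared in the same way. Camk2a drives Cre mainly in forebrain excitatory neurons, so most other cells keep the gene, although by the study's methods some offspring carried 1 deleted allele throughout the body. The recovered depth was 18935045 to 249046089 reads per library. Levels are given as rescaled CPM, which is the deposited CPM divided by a median-of-ratios factor for each library, and a member was called when its limma adjusted p was at most 0.05 and its log2 fold change at least 0.3 in size. Mef2c itself was at 1085 to 2019 rescaled CPM in WT CS and at 1080 to 1207 in Mef2c f/f CS. It was at 957, 1608 and 1727 in the Mef2c-cKO CS libraries, and these totals over the whole gene do not check the loss of 1 exon. All 6 excitatory neuron markers of the list used were above 1 CPM in every library. Choroid plexus markers summed to 184 rescaled CPM in WT CS replicate 1 and to 307 in cKO CS replicate 5, against group medians of 22.5 and 4.55. Microglial markers summed to 508 in cKO CS replicate 8, where all other libraries were at 228 or less. WT SD replicate 4 stood apart in the photoreceptor subunit Pde6b, at 4.27 against at most 0.512 in the other 32 libraries.

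Per kilobase of exon, the highest levels in WT CS were those of Pde1a, a calcium-calmodulin activated phosphodiesterase, at 140 ± 27.1 rescaled CPM per kb (SD, n = 6) and of the cyclase Adcy2 at 129 ± 12.7, and these neighbours lay within each other's spread. The cyclic AMP specific Pde4b followed at 94.3 ± 8.07 and Pde4d at 76.0 ± 7.91. Pde10a, the dual enzyme known for its abundance in the striatum, was at 68.2 ± 23.4, and Adcy1, a calcium-stimulated cyclase, was at 49.9 ± 8.13. The remaining cyclic AMP specific phosphodiesterases had means in WT CS of Pde8b at 48.5, Pde7b at 19.7, Pde7a at 10.3, Pde8a at 8.83, Pde4a at 7.7 and Pde4c at 0.326 rescaled CPM per kb. Among the calcium-calmodulin and dual enzymes the means were Pde1b at 28.8, Pde3b at 10.4, Pde1c at 3.06, Pde11a at 1.76 and Pde3a at 1.12. Of the cyclic GMP specific enzymes Pde9a was at 6.09 and Pde5a at 2.8. The Pde6 subunit genes Pde6d and Pde6h, which do not themselves encode hydrolases, were at 7.63 and 0.23. The other cyclases had means of Adcy9 at 35.2, Adcy5 at 27.7, Adcy8 at 14, Adcy3 at 5.77, Adcy6 at 4.89, Adcy7 at 0.772 and Adcy4 at 0.355. The soluble, bicarbonate-activated cyclase Adcy10 was at 0.202 ± 0.0492, the lowest of the members that passed a mean of 1 CPM apart from Pde2a. Members below that mean were Pde6a, Pde6b, Pde6c and Pde6g, the photoreceptor subunits, at mean CPMs of 0.213, 0.344, 0.404 and 0.325.

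Pde2a, a dual phosphodiesterase that cyclic GMP stimulates, could not be compared between WT and the Mef2c mice. It was at 0.419 to 1.17 rescaled CPM in all 20 WT libraries and at 262 to 399 in all 13 Mef2c f/f and Mef2c-cKO libraries, with no library between. Pde2a lies at chr7:101421691-101512827 on the plus strand in the GENCODE M21 annotation of GRCm38, and there a second gene model on the same strand, Gm45837 at chr7:101410886-101512819, covers nearly all of it. Gm45837 is not a row of the table. Over all genes, 28 were at least 10-fold lower in every WT library than in every other library, counting genes at 10 CPM or more in the higher set, and 219 were that much higher. Pde2a was the 1 member among these 247. Values listed for WT libraries summed to 925580 to 985958 CPM and those of the Mef2c libraries to 1000000, so the sets of libraries differ in what was listed, and levels or effects compared between WT and Mef2c mice cannot be told apart from that difference.

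**Figure D1:**
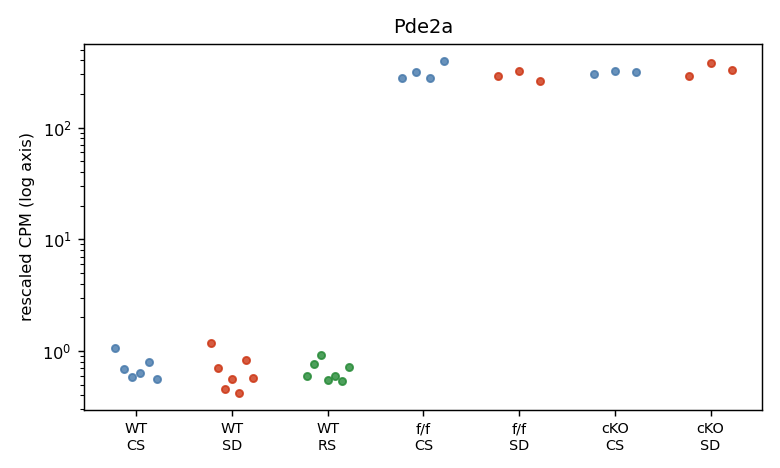
Rescaled CPM of Pde2a (log axis) in each library of the 7 groups. Every WT library was at or below 1.17 and every Mef2c f/f or Mef2c-cKO library was at or above 262.

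On the rescaled values sleep deprivation in WT mice lowered more members than it raised. On the CPM as deposited 10 were called higher and 7 lower, and 53.5% of all genes were called. Of the 34 members 29 were tested, 25 of them above 1 CPM in every library of both groups, and 18 were called, 14 lower and 4 higher. Over all 12913 genes tested 45.1% were called, 20.5% lower and 24.6% higher. The median log2 fold change was -0.32 over the 25 members and 0.038 over all genes. Of the 8 cyclic AMP specific phosphodiesterases 6 were called lower (Pde4b, Pde4d, Pde7a, Pde7b, Pde8a and Pde8b) and none higher. On the CPM as deposited 2 of the 8 were lower and 1 higher, with quantile normalization 3 and 1, and after the GC content and length correction 3 were lower and none was higher. Over all genes these settings called 53.5%, 38.6% and 21.8%. Red cell markers were called higher for 5 of 5 genes in WT SD (sums of 97.9 to 285 rescaled CPM against 28.2 to 118 in CS) and meningeal fibroblast markers for 3 of 4 (41.9 to 69.2 against 7.88 to 36.5), and their part in the member results was not tested. Without WT SD replicate 4, 16 members were called (38.7% of all genes).

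Pde4d was at 818, 894 and 1093 rescaled CPM in WT CS (lowest, median and highest of 6 libraries) and at 396, 529 and 635 in WT SD (of 7 libraries), so the groups did not overlap. Its log2 fold change was -0.83 ± 0.12 (SE; adjusted p = 0.00054, limma). The share of all genes without overlap between WT CS and SD was not counted, which holds for each member below too. Pde4d lies at chr13:108449948-109953461 and Pde4b, its paralog, at chr4:102087543-102607259. Pde4b was at 923, 974 and 1164 in CS and at 483, 626 and 731 in SD, again with no overlap. It fell by 0.68 ± 0.10 on the log2 scale (adjusted p = 0.00053, limma). Both encode the rolipram-sensitive cyclic AMP hydrolases that are abundant in cortical neurons. Pde8b was at 247, 274 and 337 in CS and 161, 192 and 254 in SD, with overlapping groups, and fell by 0.52 ± 0.12 (adjusted p = 0.0046, limma). Pde7a was at 71.1, 76.4 and 105 in CS and 46.7, 55.2 and 64.4 in SD, with no overlap, and fell by 0.50 ± 0.10 (adjusted p = 0.0024, limma). Pde7b fell by 0.52 ± 0.14 and Pde8a by 0.45 ± 0.12, both with overlap (adjusted p = 0.010 and 0.00925, limma).

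Pde1a (chr2:79834453-80129458), which hydrolyses both cyclic nucleotides when calcium and calmodulin bind it, was at 685, 786 and 1128 in CS and 414, 467 and 570 in SD. Every SD library was below every CS library, at a share of all genes that was not counted, and the log2 fold change was -0.79 ± 0.12 (adjusted p = 0.00072, limma). The cyclic GMP inhibited Pde3b was at 72.8, 89.3 and 137 in CS and 46.5, 54.0 and 62.5 in SD and fell by 0.74 ± 0.12 (adjusted p = 0.00089, limma). The cyclic GMP specific Pde5a fell by 0.55 ± 0.13, the dual enzyme Pde11a by 0.46 ± 0.14 and the cone subunit Pde6h by 0.46 ± 0.16 (adjusted p = 0.0064, 0.015 and 0.026, limma), while Pde9a, the high affinity cyclic GMP enzyme, was 0.18 ± 0.11 higher and not called (adjusted p = 0.18, limma).

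Among the cyclases 3 fell and 3 rose. Adcy8, which calcium stimulates, was at 95.4, 107 and 159 in CS and 50.6, 64.7 and 77.0 in SD (log2 fold change -0.81 ± 0.13, adjusted p = 0.00081, limma). Adcy2, which calcium does not regulate directly, was at 492, 532 and 641 in CS and 283, 342 and 418 in SD (-0.63 ± 0.10, adjusted p = 0.00077, limma). Neither overlapped between groups, and Adcy10 fell by 0.56 ± 0.13 (adjusted p = 0.0049, limma). Adcy3 rose by 0.55 ± 0.15 and Adcy4 by 0.44 ± 0.12 (adjusted p = 0.0094 and 0.011, limma), both without overlap. The share of all genes without overlap was not counted. The abundant calcium-stimulated Adcy1 was 0.15 ± 0.11 higher and was not called (adjusted p = 0.27, limma).

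**Figure D2:**
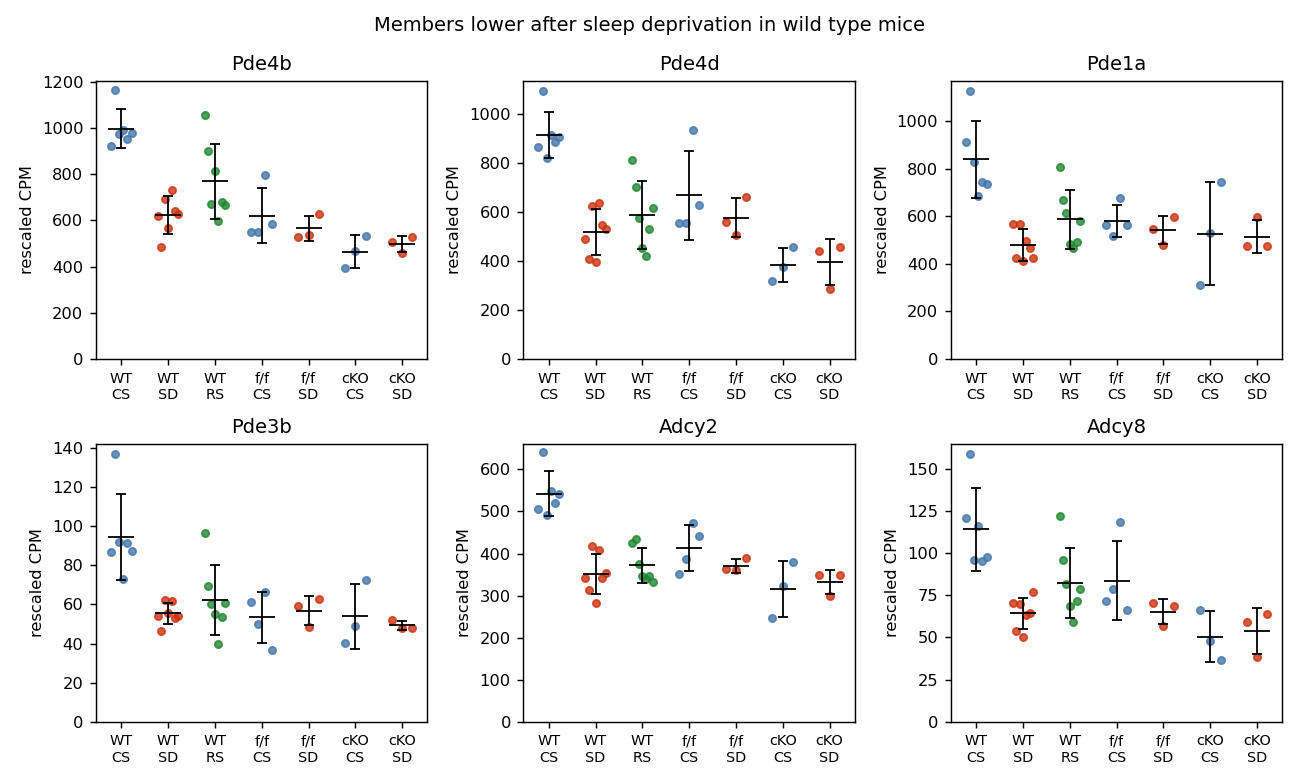
Rescaled CPM of 6 members in each library (points) with group mean and SD (black). In WT mice each of the 6 was lower in every SD library than in every CS library, while Mef2c f/f CS and SD libraries overlapped for each. The share of all genes without overlap in WT mice was not counted.

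Adcy5, the calcium-inhibited cyclase of striatal spiny neurons, and Pde1b rose in WT SD, but with overlapping groups. Adcy5 was at 107, 224 and 273 in CS and 205, 304 and 423 in SD (log2 fold change 0.67 ± 0.25, adjusted p = 0.037, limma), and Pde1b at 106, 172 and 195 in CS and 167, 212 and 327 in SD (0.51 ± 0.18, adjusted p = 0.033, limma). Pde10a, also named above for the striatum, went the other way. It was at 433, 933 and 1229 in CS and 441, 700 and 1041 in SD, with overlap, and was not called. It was called lower with WT CS replicates 1 and 2 both left out (28.7% of all genes called). Striatal spiny neuron markers moved beside Adcy5 and Pde1b. The 7 markers in the table summed to 286 to 568.2 rescaled CPM in CS (median 404) and 338 to 746 in SD (median 446), 3 of 7 were called higher and none lower, none was at 0 in any library, and 1 was under 1 CPM in some. With the log2 of that sum as a covariate, a fit added after the data were seen, Adcy5 was 0.53 higher (adjusted p = 0.073, limma) and Pde1b 0.38 (adjusted p = 0.060, limma), so neither call was kept. Both calls were also lost without WT CS replicate 1 or 2 or WT SD replicate 4, 6, 8 or 9, and with no filter on low values. In bulk tissue fewer cells of a type and less RNA per cell cannot be told apart.

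**Figure D3:**
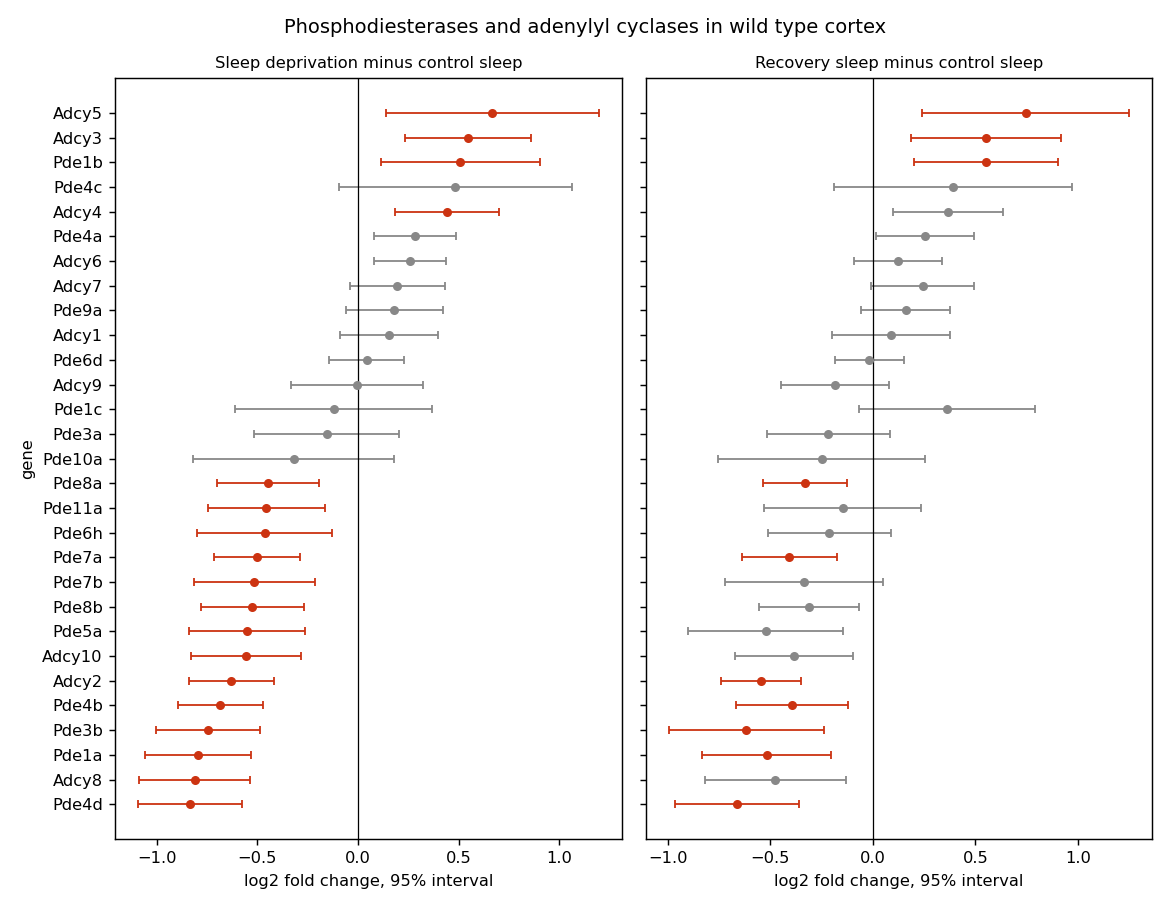
Log2 fold changes with 95% intervals of the 29 members tested in WT mice, for SD minus CS (left) and RS minus CS (right), with called members in red. Pde4d was lowest in both panels and Adcy5 highest in both.

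Base composition moved with these changes. The GC content of the transcripts was 38.3 to 52.2% for the 14 members that fell and 54.1 to 58.6% for the 4 that rose, with no overlap. The Spearman correlation between GC content and log2 fold change was 0.75 over the 29 members and 0.73 over the 12443 genes with an annotated transcript, as a description over genes that share the same libraries. In the third of genes with the lowest GC content 45.5% of all genes and 7 of 8 members were called lower. After a spline correction for GC content and transcript length 7 members were called, all lower, and 21.8% of all genes. These were Pde4d (-0.76), Adcy8 (-0.74), Adcy2 (-0.63), Pde8b (-0.55), Pde4b (-0.48), Pde1a (-0.45) and Pde6h (-0.43). Pde3b, with the lowest GC content of the members, was then at -0.20 (adjusted p = 0.056, limma), and no member was called as higher. The part of base composition in the uncorrected result was not tested further.

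**Figure D4:**
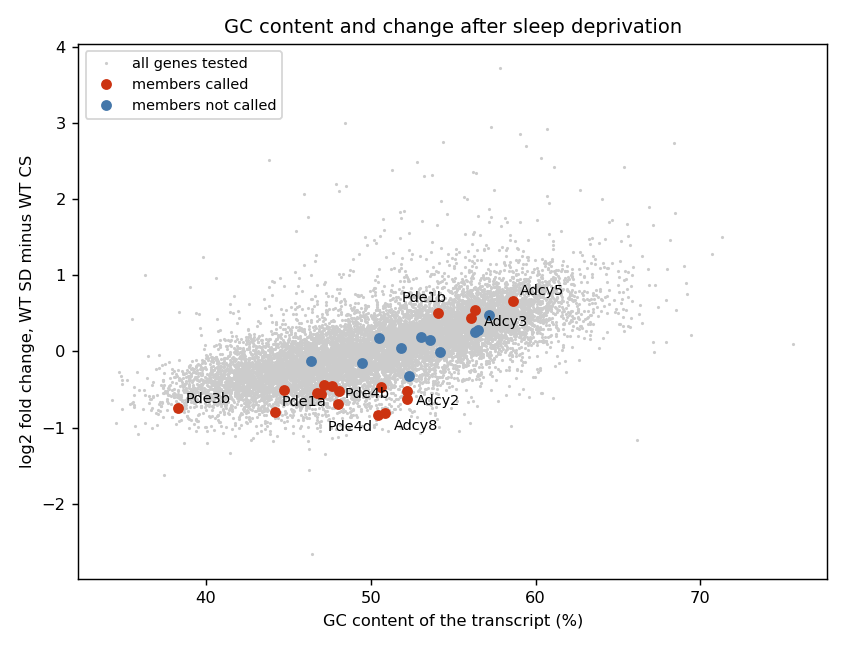
GC content of the transcript against the log2 fold change of WT SD minus CS for all genes tested (grey), called members (red) and other members (blue). The members follow the slope of all genes, and Pde4d, Adcy8 and Adcy2 lie below it.

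Scaling also bore on the direction. The library factors were 0.716 to 0.911 in WT CS and 0.978 to 1.08 in WT SD, and on the CPM as deposited the median of all genes moved from 0.038 to 0.30 on the log2 scale. Members called higher were then 10 and lower 7, so that 58.8% of calls were higher against 22.2% with the rescaled values. Of all genes 53.5% were called on the CPM as deposited, against 45.1% on the rescaled values. Pde4d, Pde4b, Pde1a, Pde3b, Adcy2, Adcy8 and Adcy10 were called lower on both scales.

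Promoters of the members were searched for the element by which CREB binds cyclic AMP responsive genes. Sequences are from RefSeq (GRCm38.p6, 250 bases before to 50 after a start site), which held 49 promoters of 25 members. The full cyclic AMP response element TGACGTCA was in none of them and in 1.79% of all 32851 promoters. The shorter core TGACG or CGTCA, which lies within the full element, was in 9 of the 49 member promoters (18.4%) and in 20.8% of all promoters, and the MEF2 consensus was in none of the members' promoters and 3.19% of all. Shown are Pde4b (chr4:102421305-102421604, plus strand), Pde1a (chr2:80038853-80039152, minus strand) and Adcy5 (chr16:35154614-35154913, plus strand), with the shorter core in capitals where there is one. They show 2 promoters with the core and 1 without, and other promoters of Pde4b and Pde1a lack it. Base composition of these promoters does not stand for the rest, since the promoter of Adcy2, which fell, had a GC content of 75.0% and that of Adcy4, which rose, 58.0%. A match is a description of letters and not of binding.
Pde4b: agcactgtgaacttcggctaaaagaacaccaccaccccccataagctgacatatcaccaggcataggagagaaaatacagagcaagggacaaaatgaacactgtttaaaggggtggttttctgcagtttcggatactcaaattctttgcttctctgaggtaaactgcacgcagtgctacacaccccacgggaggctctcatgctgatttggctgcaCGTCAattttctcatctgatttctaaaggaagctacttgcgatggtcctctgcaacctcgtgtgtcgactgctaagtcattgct
Pde1a: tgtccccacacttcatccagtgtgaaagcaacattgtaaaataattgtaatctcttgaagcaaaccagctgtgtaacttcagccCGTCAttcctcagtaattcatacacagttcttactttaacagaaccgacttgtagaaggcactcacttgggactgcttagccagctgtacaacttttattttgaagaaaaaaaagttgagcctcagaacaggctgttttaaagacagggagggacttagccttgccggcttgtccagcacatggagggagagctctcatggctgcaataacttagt
Adcy5: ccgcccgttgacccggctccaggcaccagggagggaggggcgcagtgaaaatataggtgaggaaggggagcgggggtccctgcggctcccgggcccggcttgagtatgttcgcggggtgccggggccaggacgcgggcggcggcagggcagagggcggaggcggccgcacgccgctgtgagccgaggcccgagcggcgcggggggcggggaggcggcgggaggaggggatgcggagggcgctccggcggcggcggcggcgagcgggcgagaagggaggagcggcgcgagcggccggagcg

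Other genes of the pathway were counted from lists, beside 20.5% of all genes called lower and 24.6% higher in WT SD. Of 14 A kinase anchoring protein genes, which hold protein kinase A at its targets, 11 were tested in WT SD and 5 fell (Akap7 by 0.59, Akap9 by 0.50 and Akap6 by 0.48 on the log2 scale) and none rose. Of 11 cyclic AMP effector genes 3 fell and 1 rose: the protein kinase inhibitor Pkib fell by 0.87 and the Epac genes went opposite ways, with Rapgef3 0.79 higher and Rapgef4 down by 0.42. In the nitric oxide and cyclic GMP arm 12 of 19 genes were tested, 6 fell and 3 rose. There the soluble guanylyl cyclase subunit Gucy1a2 fell by 0.85, and the cyclic GMP dependent kinases Prkg1 and Prkg2 both by 0.68. Among 7 G protein genes Gnai2 rose by 0.45 and Gnai1 fell by 0.35. Of 8 CREB factor genes Creb1 fell by 0.39 and its coactivator Crtc1 rose by 0.49. These counts moved with scaling and composition: on the CPM as deposited 1 A kinase anchor gene was lower and 1 higher, 1 effector gene lower and 5 higher, and 3 cyclic GMP arm genes lower and 4 higher. After the GC content and length correction 0 anchor genes were called, 1 effector gene was lower and 1 higher, and 2 cyclic GMP arm genes were lower. Over all genes 53.5% were called on the CPM as deposited and 21.8% after the correction.

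After recovery sleep in WT mice Adcy2, Pde4d and 5 other phosphodiesterases were below control sleep and Adcy5, Adcy3 and Pde1b above it. Of 29 members tested 10 were called, 7 lower and 3 higher, where 17.5% of all genes were called, 8.22% lower and 9.28% higher. On the CPM as deposited 4 were lower and 5 higher (20.9% of all genes called). Both comparisons use the same CS libraries, so their values are given side by side only. Pde4d was at 422, 576 and 812 in RS, below every CS library (log2 fold change -0.66 ± 0.14, adjusted p = 0.033, limma), as was Adcy2 at 333, 347 and 436 (-0.54 ± 0.09, adjusted p = 0.033, limma). The share of all genes without overlap here was not counted. Pde4b was at 597, 679 and 1057, overlapping CS (-0.40 ± 0.13, adjusted p = 0.046, limma). Pde3b (-0.62), Pde1a (-0.52), Pde7a (-0.41) and Pde8a (-0.33) were also called lower, and Adcy5 (0.75), Adcy3 (0.55) and Pde1b (0.55) higher. Pde10a was at 520, 757 and 1006 in RS, against 433, 933 and 1229 in CS, and was not called. Striatal spiny neuron markers were called higher here too, for 3 of 7 genes, and none lower. Their sums overlapped, with medians of 601.4 rescaled CPM in RS and 404.2 in CS. With the log2 of that sum as a covariate, 11 members were called (29.4% of all genes). Adcy5 and Pde1b were no longer among them, and Adcy3 was. Calls over all genes depended on single libraries, and those of the members moved with them. Leaving out 1 of WT CS replicate 3 or WT RS replicates 3, 4, 5, 6 or 12 left 0 called members and at most 0.0235% of all genes. Without WT CS replicate 1 or 2 there were 2 and 1 members (1.75% and 0.768% of all genes). Without WT RS replicate 1 there were 16 (29.2% of all genes). With the GC content and length correction Adcy2 and Pde4d remained (3.13% of all genes called). RS and SD did not differ by the test: 0 of 28 members and 0.0232% of genes were called by limma, 3 members and 5.29% of genes had an unadjusted p under 0.05, and edgeR and DESeq2 called 0 members.

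In Mef2c f/f mice sleep deprivation gave no call among 29 members tested (0.0403% of all genes, limma), with 2 at an unadjusted p under 0.05, as were 17% of all genes. Those were the high affinity cyclic AMP hydrolases Pde8a and Pde8b. Pde8a was at 29.2, 27.0, 29.6 and 33.9 rescaled CPM in CS and 21.6, 22.5 and 23.2 in SD, a log2 difference of -0.40 with adjusted p = 0.11, and Pde8b differed by -0.29 with adjusted p = 0.14 (limma). Neither gene overlapped between groups, but the share of all genes without overlap in groups this small was not counted. DESeq2 called 1 member, Pde8a, and 3.76% of all genes, and edgeR called 0 members. In Mef2c-cKO mice 0 of 30 members were called (0.0234% of all genes, limma), 1 member and 3.05% of genes had an unadjusted p under 0.05, and edgeR and DESeq2 called 0 members. The difference of the sleep effect between Mef2c-cKO and Mef2c f/f mice was called for 0 of 30 members and 0.00778% of genes on adjusted p alone (limma), with 3 members and 7.81% of genes at an unadjusted p under 0.05 and 0 members called by edgeR and by DESeq2.

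The sleep effect differed between Mef2c f/f and WT mice for 6 of 30 members on adjusted p alone, 5 higher and 1 lower in f/f, where 15.1% of all genes were called, 9.35% higher and 5.78% lower. For Pde3b the log2 effect was 0.11 ± 0.18 in f/f and -0.74 ± 0.12 in WT, a difference of 0.85 ± 0.23 (adjusted p = 0.028, limma). For Pde1a it was -0.10 ± 0.11 and -0.79 ± 0.12, a difference of 0.69 ± 0.19 (adjusted p = 0.030, limma). Pde4b (0.56), Adcy2 (0.48) and Pde7a (0.45) differed the same way and Pde4a (-0.47) the other way. On the CPM as deposited 2 were higher and 7 lower (26.1% of all genes called). With the GC content and length correction 1 was called, Adcy2 (2.02% of all genes). Leaving out 1 library gave 0 to 10 member calls (23 to 3300 of all genes), with 0 members without Mef2c f/f CS replicate 2 or 4 or SD replicate 1 or 3. Genotype here cannot be told apart from the difference in listing described for Pde2a.

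Between Mef2c-cKO and Mef2c f/f mice a few members differed within each sleep state, at shares near those of all genes. In CS, 3 of 30 were called, all lower in Mef2c-cKO, where 7.67% of genes were called and 4.5% lower. Pde8b was at 224, 236, 238 and 261 rescaled CPM in the f/f libraries and at 138, 158 and 155 in the Mef2c-cKO libraries (log2 difference -0.67 ± 0.09, adjusted p = 0.0057, limma). Pde4d was at 555, 553, 936 and 627 against 317, 374 and 455 (-0.79 ± 0.20, adjusted p = 0.047, limma), and Pde8a was lower by 0.42. No group overlapped for these called members, and the share of all genes without overlap was not counted. Pde8b was the 1 of the 3 that stayed called with any 1 library left out. Markers of other cells also differed here: 2 of 6 oligodendrocyte, 1 of 6 astrocyte, 1 of 6 inhibitory neuron and 2 of 4 meningeal fibroblast markers were called higher in Mef2c-cKO CS, and 2 of 5 red cell and 1 of 5 endothelial markers lower. Summed levels were 2170 to 2937 against 1839 to 2203 for oligodendrocytes and 34.3 to 38.05 against 23.8 to 28.1 for meningeal fibroblasts, and their part in the member results was not tested.

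In SD, 5 of 30 members were called, 2 higher and 3 lower in Mef2c-cKO, where 15.1% of genes were called, 9.1% higher and 5.99% lower. Pde1c, a calcium-calmodulin phosphodiesterase with high affinity for both nucleotides, was at 20.2, 28.1 and 24.5 in f/f and at 58.5, 60.5 and 69.1 in Mef2c-cKO (log2 difference 1.36 ± 0.12, adjusted p = 0.00049, limma). Pde3a, the cyclic GMP inhibited relative of Pde3b, was at 6.26, 8.31 and 6.46 against 14.04, 13.6 and 15.4 (0.99 ± 0.12, adjusted p = 0.0021, limma). Pde8b (-0.43), Adcy1 (-0.47) and Pde5a (-0.50) were lower. None of the 5 called members overlapped, and the share of all genes without overlap was not counted. In CS the same direction was seen for Pde1c at 0.52 ± 0.28 and Pde3a at 0.79 ± 0.27, neither called (adjusted p = 0.25 and 0.096, limma). The genotype difference of Pde1c between SD and CS was 0.84 ± 0.36 (adjusted p = 0.63, limma). Microglial markers were called higher for 5 of 6 genes in Mef2c-cKO SD, with sums of 204 to 225 against 160 to 166, and striatal marker sums were 272 to 547 against 193 to 389 with 0 of 7 called. Inhibitory neuron markers were called higher for 3 of 6 genes and lower for 1, with sums of 706 to 824 against 532 to 608, and excitatory neuron markers lower for 1 of 6, with sums of 1580 to 1776 against 1847 to 1979, and neither overlapped. Astrocyte markers were called higher for 2 of 6 genes. The part of these in the member results was not tested. Pde1c and Pde3a stayed called in all 18 alternatives run. In the nitric oxide and cyclic GMP arm 13 genes were tested, and 3 were higher and 1 lower. The largest change there was that of Nos1, neuronal nitric oxide synthase, which was higher by 1.46 ± 0.08 (adjusted p = 2.62e-05, limma). In CS 12 genes of this arm were tested and 1 was called, again Nos1. It was higher in Mef2c-cKO CS, at a mean of 51.5 rescaled CPM against 27.2 in f/f CS, with overlap. Of 11 A kinase anchor genes tested 1 was higher and 2 lower in SD, and 0 were higher and 3 lower in CS. Of 7 G protein genes 1 was higher in SD and 0 were called in CS. Of 8 CREB factor genes 1 was lower in each sleep state, Atf1.

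**Figure D5:**
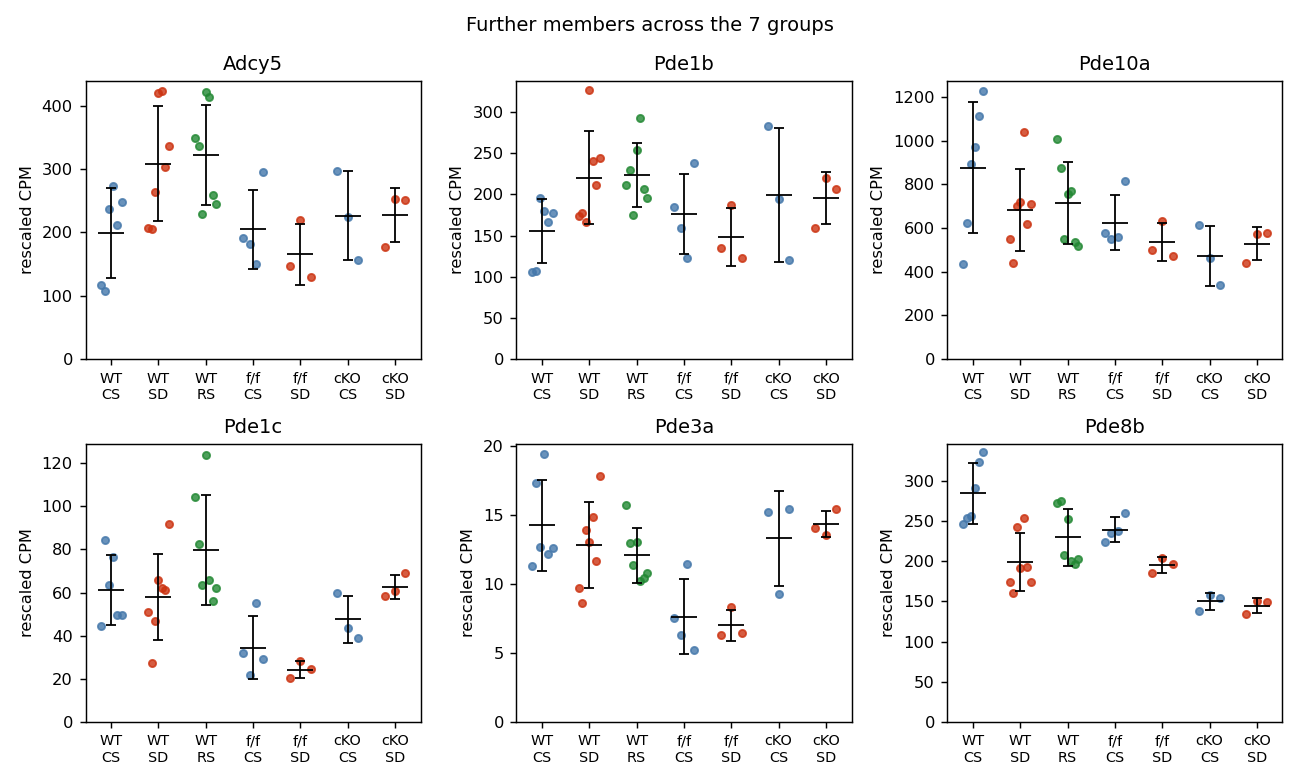
Rescaled CPM of 6 further members in each library (points) with group mean and SD (black). Pde1c and Pde3a were higher in every Mef2c-cKO SD library than in every f/f SD library, and Pde8b was lower in Mef2c-cKO in both sleep states. The share of all genes without overlap was not counted.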

How the data were processed

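Frontal cortex RNA-seq of 33 mice was analysed from the table of CPM values that the authors deposited. The authors trimmed reads with Trimmomatic, aligned them with STAR to mm10, counted unique reads per gene with HTSeq and computed CPM with edgeR, and versions and annotation release are not given in the sources used here. Each library's smallest value was taken as 1 read, and 100% of values were then whole numbers within 0.01, so read counts were recovered for the count tools. CPM was divided by median-of-ratios factors and tested as log2 (rescaled CPM + 0.5) with limma 3.58.1, trend on, in the groups compared. Genes at 1 CPM or more in every library of at least 1 group were tested, and fold changes on this scale understate changes of low genes. p-values were adjusted by Benjamini-Hochberg over all genes tested. A call needed an adjusted p of at most 0.05 and, except in interactions, a log2 fold change of at least 0.3. Counts of called genes per list on other scales were added after seeing the data. Alternatives included edgeR 4.0.16, DESeq2 1.42.0 and a spline correction (GC content, df = 5; log10 transcript length, df = 4). Gene models were from GENCODE M21. Members and lists were chosen with earlier results of these data known. Members above a mean of 1 CPM are named with values where called, and at most the 3 largest called genes of a pathway list are named. The labels list each library as a separate sample without naming the mouse, so p-values measure the spread between these samples. On simulated counts with 200 changed genes, limma recovered 93% of log2 changes of 1 and 36% of 0.5 for WT SD against CS. In the data 5826 genes were called there. The adjusted p depends on how many genes change, so these shares do not give the recovery in the data.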

Additional observations from a re-analysis of the deposited data

Results flagged for a closer look

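Within groups of 4 to 7 libraries, 10 of 120 member and group pairs had a library far from the others by Dixon's test, which flags about 1 in 20 groups by chance. WT CS replicate 2 was the highest of its group for 6 members, in rescaled CPM: Pde4b at 1160 (others up to 989), Pde4d at 1090 (up to 915), Pde3b at 137 (up to 91.9), Pde7a at 105 (up to 79.5), Pde5a at 42.1 (up to 28.4) and Adcy10 at 2.58 (up to 1.82). The library factor of WT CS replicate 2 was 0.716, the lowest of all 33 libraries, against 0.855 to 0.911 in the other WT CS libraries. Division by a low factor raises every rescaled value of a library, and its part in these flags was not tested. After the same division WT CS replicate 2 was the lowest of its group for other members, without a flag. Among them were Adcy1 at 458, Adcy3 at 20.7, Adcy5 at 107 and Pde4a at 43.2. WT CS replicate 1 was lowest for Pde7b at 172, with the others at 238 to 275. Pde10a was at 814 in Mef2c f/f CS replicate 4 (others 550 to 578) and Pde4b at 796 in replicate 3 (549 to 585). Pde9a was at 17.1 in WT SD replicate 2, with the others at 24.6 to 28.2. With WT CS replicates 1 and 2 both left out, 16 members were called in WT SD against CS (28.7% of all genes). In RS against CS 0 members and 0% of all genes were then called.

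The sleep effect of 6 members differed between Mef2c f/f and WT mice by the interaction test (limma): Pde3b by 0.85, Pde1a by 0.69, Pde4b by 0.56, Adcy2 by 0.48, Pde7a by 0.45 and Pde4a by -0.47 on the log2 scale.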

How the results depend on the processing

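No called member changed direction under any alternative run. For WT SD against CS (18 members called) the GC content and length correction gave 7 (21.8% of all genes). For WT RS against CS (10) no filter gave 2 (1.99% of all genes) and the correction 2 (3.13%). Leaving out WT CS replicates 1 and 2 together gave 0 (0%). DESeq2 and all 7 groups in 1 fit gave 15 each (26.8% and 36.9% of all genes). For Mef2c-cKO against f/f in CS (3, with 7.67% of all genes) no filter gave 1 (5.49%), DESeq2 9 (16.5%) and all 7 groups in 1 fit 6 (12.9%). The correction and the striatal covariate gave 5 each (11.3% and 10.9% of all genes). In SD (5) all 7 groups in 1 fit gave 2 (5.4% of all genes). For Mef2c f/f SD against CS (0) DESeq2 gave 1 (3.76% of all genes). For the f/f and WT interaction (6) quantile normalization and no filter gave 2 each (10.7% and 5.94% of all genes). There edgeR gave 3 (12.8%), the striatal covariate 3 and the correction 1 (2.02%). Leaving out 1 library gave 16 to 19 called members for WT SD (4509 to 6411 of all genes) and 0 to 16 for RS (0 to 3740). The range was 0 to 2 for Mef2c f/f (0 to 590) and 0 to 10 for the f/f and WT interaction (23 to 3300). For Mef2c-cKO against f/f it was 1 to 2 in CS (171 to 875) and 4 to 7 in SD (822 to 2447). The causes were not tested. The striatal covariate and the double leave-out were added after seeing the data.

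Deviations of same-numbered libraries correlated over 0.1 in 12 of 21 pairs (from -0.73 to 0.67), so the numbers were not taken to pair libraries. For WT RS and CS it was 5 of 6 pairs, 4 of 12 libraries correlated best with their own number, and a shared batch there was not tested. With the replicate block, which uses only shared numbers, 2 members were called for WT SD against CS (285 of all genes against 5826). There were 13 for WT RS against CS (4285 of all genes against 2232) and 0 for the f/f and WT interaction. With the block and the GC content and length correction these were 6 (539 of all genes), 6 (1536 of all genes) and 0. The block gave 0 for WT RS against SD and for the sleep effect in f/f and in Mef2c-cKO mice. Mef2c-cKO and f/f share no numbers within a sleep state, so no block could be fitted there.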

Other observations

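WT SD replicate 4 held the photoreceptor phosphodiesterase subunits well above all 32 other libraries. Pde6a was at 3.38 rescaled CPM there and at 0 to 0.283 in the others, Pde6b at 4.27 and 0.0944 to 0.512, and Pde6g at 1.48 and 0.05 to 0.651, while the cone subunit Pde6c at 0.475 lay within the others' range of 0.137 to 0.768. Gnat1, a rod gene chosen after these values were seen, was at 8.04 in the same library and at most 0.19 in the others. Without that library 16 members were called in WT SD against CS (38.7% of all genes).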
